A study of Rattus norvegicus with 12 samples.

Results

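The 3 arrays described here carried RNA of the prostate of sham-operated, vehicle-treated rats in both dyes, and so show the transcriptome of the control gland against itself. They were chosen by title, as the sham/vehicle replicates 1 to 3, and are 3 of the 12 arrays of the series. Each array gave 2 readings, Cy5 (red) and Cy3 (green), or 6 readings in all. The animals were male rats of 10 weeks, with no strain or genetic change named in the labels. They had a sham operation and, starting 5 days later, received vehicle (0.1% Tween 80) in 2 doses a day for 5 days. The prostate was taken 2 h after the last dose. The other 9 arrays carried in Cy5 RNA of sham-operated rats given Eviprostat, a herbal preparation used for prostate enlargement, at 18 mg/kg in each of 2 daily doses (36 mg/kg a day), of rats whose bladder outlet was partly obstructed by surgery and that received vehicle, or of obstructed rats given Eviprostat at the same dose. In the obstructed rats dosing lasted 5 days from the day after surgery. Their Cy3 was labelled as sham/vehicle RNA, and they enter only the closing Cy3 comparison. Groups held 5 or 6 animals whose tissue was pooled before labelling, and the labels nevertheless call the arrays of a group biological replicates. Errors and p-values here therefore measure the spread between arrays, which may be technical.

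The rodent prostate is a set of branched glands whose luminal epithelial cells secrete the proteins of prostatic fluid under control of androgens. Basal cells underlie the luminal layer, and smooth muscle and fibroblasts surround the glands. Luminal cells are known for a large endoplasmic reticulum, for making polyamines and for accumulating zinc and citrate. The seminal vesicles and coagulating glands, which lie against the prostate, secrete clotting proteins of semen.

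Arrays differed in brightness before any scaling. After subtraction of the local background the median gene spot had an intensity of 59.9 in Cy5 and 92.8 in Cy3 on array 1, 218 and 119 on array 2, and 241 and 127 on array 3. By the median, array 1 was thus dimmer in both dyes, and its Cy5 reading was the dimmest of the 6. In Cy3, however, its brightest probe reached 283276, against 184200 on array 2 and 188084 on array 3. The share of gene spots that the scanner software marked as well above background ran from 70.4% (Cy3 of array 3) to 85.6% (Cy5 of array 2). It was 84.1% in Cy3 of array 1 and 70.6% in Cy3 of array 2. The 153 negative control spots had a median between 12.7 (Cy5 of array 1) and 53.3 (Cy3 of array 3). In Cy3 their median was lower on array 1 (27.0) than on array 2 (51.3). Saturation was confined to Cy5, with 5 probes on array 2 and 6 on array 3. Array 1 stood apart in Cy5: its log2 level correlated with arrays 2 and 3 at r = 0.956 and 0.957, against 0.994 between arrays 2 and 3 (26838 to 26858 probes, a description across probes). Arrays of the same number lay on one slide, and the slide of array 1 was scanned on another day than the other 2, so that slide and scan cannot be told apart. With 3 arrays, precision is limited by their number.

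A gene's level is the log2 of its intensity after each reading was scaled to a common 75th percentile, averaged over both dyes and then over the 3 arrays, taking the brightest probe of the gene. It is a brightness of a spot, set by the probe's sequence as well as by the amount of RNA, and ranks below are ranks of brightness. The 15636 genes that could be named were ranked in this way.

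Secreted proteins of the male accessory glands and proteins of the ribosome were the brightest named genes. The probes of 4 secreted or surface proteins among the top 10 are shown because the top of the ranking rests on them, with the first 30 of 60 bases, 5′ to 3′. Positions are those the array files give for the whole probe (rat build rn3). Those of Pbsn and Msmb span more than 60 bases, so by these positions the probe is not a single unbroken stretch. Whether the positions lie in exons or UTRs was not analysed here.
Svs4, chr3:155119067-155119126, plus strand: ggtgagagctcgtatgccaagaaaaagagg
Cd52, chr5:152853062-152853121, minus strand: gaagggttgataccagagatccaaggaggt
Pbsn, chrX:63649051-63650870, minus strand: gacagacaagaatctcaaaaagaagattga
Msmb, chr16:7627259-7639748, plus strand: aaactgcgatcacctgctgcaccaaaactc
Svs4, a secretory protein best known from the seminal vesicle, had the highest rank, with Cy5 intensities of 128650, 584364 and 602683 on arrays 1 to 3 and Cy3 intensities of 169467, 123915 and 126880. Its Cy5 reading was the lower of the dyes on array 1 and the higher on arrays 2 and 3, as were the readings as a whole. The scaled level of Svs4 was 18.00 ± 0.24 (log2, SD over 3 arrays), and its Cy5 spot was saturated on array 3, so that this reading is a lower limit. Cd52, a small surface glycoprotein of lymphocytes and of the epithelium of the male tract, ranked 3, with Cy5 of 200751, 475604 and 441840 and Cy3 of 141352, 114847 and 119782. Pbsn, the androgen-dependent lipocalin probasin of the rat prostate, ranked 5, with Cy5 of 106706, 511280 and 482518 and Cy3 of 161619, 122646 and 121213. Msmb, the microseminoprotein of prostatic fluid, ranked 10, with Cy5 of 119220, 457445 and 495251 and Cy3 of 124016, 99683 and 102659. The scaled levels of these 3 genes were 17.91 ± 0.49, 17.85 ± 0.24 and 17.70 ± 0.26, so that neighbours at the top of the ranking differed by less than the spread between arrays. Part of this spread was shared, since the scaled level of each of these genes and of Svs4 was highest on array 1. Svs4 lay above Pbsn, and Pbsn above Msmb, on every array. Cd52 lay above Svs4 on array 1 and below Pbsn on arrays 2 and 3.

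The rest of the 25 brightest genes were mostly parts of the translation machinery. Of the 25, 16 encode ribosomal proteins, led by Rps6, Rpl41, Rps16, Rplp1 and Rps23 with levels of 17.90, 17.79, 17.77, 17.75 and 17.74. Tpt1, the translationally controlled tumour protein, was second (17.99 ± 0.41) and Ubb, a polyubiquitin gene, stood at 17.30 ± 0.07. The other 3 were Car2, a carbonic anhydrase that handles bicarbonate (17.32 ± 0.29), Wfdc3, a member of the whey acidic protein family (17.24 ± 0.15), and Tspan1, a tetraspanin of epithelial membranes (17.20 ± 0.39). Ribosomal proteins have many processed pseudogenes, which these probes may not separate. Between 23 and 25 of these 25 genes stayed among the 25 brightest under each of 10 alternatives, and Rpl35, Rpl9 and Tspan1 were among the genes that left.

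**Figure D1:**
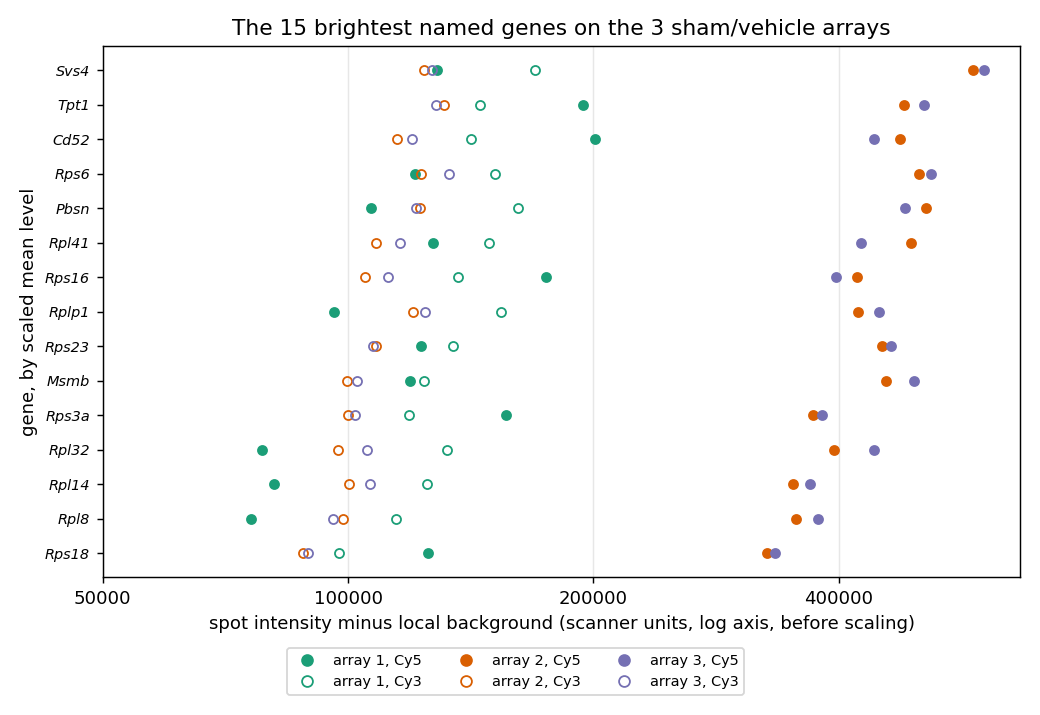
Spot intensity minus local background of the 15 brightest named genes (log axis, scanner units, before scaling), with 1 point per reading; colours stand for arrays, filled points for Cy5 and open points for Cy3. The Cy5 points of arrays 2 and 3 lie to the right of all other readings for every gene shown, while the Cy5 points of array 1 stay near the Cy3 points.

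Only 58 of the 100 brightest probes had a gene name, and these stood for 53 genes. The 5 brightest probes of all had no current gene name, and each was saturated in Cy5 on arrays 2 and 3. Of these, 2 were described in the array design as an rRNA promoter binding protein (LOC257642), at 18.56 ± 0.69 and 18.36 ± 0.49. Of the 42 unnamed probes among the 100 brightest, 18 were described in the array design with the word ribosomal. The 10 brightest probes took between 3.49% (Cy3 of array 3) and 7.19% (Cy5 of array 1) of the summed signal of a reading, and the 100 brightest between 19.6% and 29.1% of the same 2 readings.

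The labelled tissue was checked against defining genes of the prostate, of which most were detected and some were very bright. Of all named genes, 77.4% were well above background in all 6 readings, which is the sense of "detected" below; 5.59% were well above background in no reading of any probe, called "not detected", and the remainder were mixed. Of 21 measured prostate secretory proteins, 20 were detected, with a median percentile of brightness of 64.4 and 6 in the brightest 10% of genes. Beside Pbsn and Msmb these were Clu, the chaperone clusterin (14.08 ± 0.35), Cst3, the protease inhibitor cystatin C (14.07 ± 0.36), and the prostatein subunits Scgb1d4 (13.01 ± 0.10) and Scgb1d2 (11.89 ± 0.09). The remaining prostatein subunit, Scgb2a1, was at 11.42 ± 0.18, and Sbp, the spermine-binding protein, at 10.84 ± 0.09. Prostatein and Sbp are the classical products of the ventral lobe, and the labels do not say which lobes were taken. The lowest detected member was Tgm4, the prostate transglutaminase known from the dorsal and coagulating lobes (6.64 ± 0.14). Acp3, prostatic acid phosphatase, was not detected: its Cy5 intensities were 14.6, 28.9 and 37.2 and its Cy3 intensities 35.8, 41.4 and 49.1, against negative control medians of 12.7, 21.0 and 26.2 in Cy5 and 27.0, 51.3 and 53.3 in Cy3.

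Regulators and surface markers of luminal cells ranged over the whole scale. Slc45a3 (prostein, 12.18 ± 0.09), Tmprss2 (a membrane protease, 12.12 ± 0.02), Mme (neprilysin, 12.09 ± 0.15) and Hoxb13 (a homeobox factor of the prostate, 11.69 ± 0.21) lay in the brightest 10%. Hoxb13 was the brightest of 30 Hox genes. Folh1, known as prostate-specific membrane antigen in man, was not detected. Of the 17 measured genes of this list 14 were detected, with a median percentile of 59.3, and Steap2 and Trpv6 were mixed. The 15 luminal keratin and junction genes had a median percentile of 92.9, led by Krt18 (16.55 ± 0.17), and 14 were detected, the exception being Krt4. Of 12 basal genes, 11 were detected with a median percentile of 68.5, led by Krt15 (13.50 ± 0.09), and Col17a1, the hemidesmosomal collagen, was not detected. In bulk tissue, fewer cells of a type and less RNA per cell cannot be told apart.

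Genes for protein secretion, respiration and polyamines were bright as groups, and lists for zinc, citrate and steroids lay lower. All 32 measured genes of endoplasmic reticulum folding and secretion were detected, with a median percentile of 94.5, led by the folding enzyme Pdia6 (16.55 ± 0.32) and the chaperone Hspa5 (16.50 ± 0.43). Of 11 polyamine genes, 10 were detected, with a median percentile of 85.7. Amd1, which makes decarboxylated S-adenosylmethionine, stood at 16.21 ± 0.48, and Odc1, the ornithine decarboxylase, at 12.25 ± 0.16. Of 19 genes of zinc handling and citrate, 17 were detected, with a median percentile of 69.0, close to that of the basal list, and 6 lay in the brightest 10%. The metallothioneins Mt1 (17.00 ± 0.46) and Mt3 (16.13 ± 0.13), which bind zinc, and the vesicular zinc transporter Slc30a2 (16.24 ± 0.14) led this list. The plasma membrane importers Slc39a14 and Slc39a2 were mixed. The other Slc39a genes of the list, Slc39a1, Slc39a3, Slc39a4, Slc39a6, Slc39a7 and Slc39a8, were detected, at levels from 7.91 (Slc39a1) to 12.70 (Slc39a7). Of 24 steroid receptors and enzymes 20 were detected, with a median percentile of 56.4 and 3 in the brightest 10%. Among them Srd5a2, a 5-alpha reductase that makes dihydrotestosterone, was at 8.46 ± 0.19, and Srd5a1, another 5-alpha reductase, was at 9.80. Cyp11a1, which starts steroid synthesis from cholesterol, was not detected. Of the 67 genes of the respiratory chain and ATP synthase, all were detected (median percentile 96.7), and of 86 cytosolic ribosomal proteins, 85 were detected and 80 lay in the brightest 10%.

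Genes known from the seminal vesicle ranged from very bright to not detected. The probes of the bright Semg1 and the dim Svs5 and Svs1 are shown for comparison with Svs4.
Semg1, chr3:155087023-155087082, minus strand: atcctatggtcaacaaaaatcccaaaaaca
Svs5, chr3:155171865-155171924, plus strand: accagggagaaagtgaatgaggaaagcagg
Svs1, chr4:77383035-77383094, plus strand: ataatggagggcaagatgtatgctaccggg
Semg1, a semenogelin and substrate of semen clotting, ranked 28, with Cy5 of 55775, 258810 and 249782 and Cy3 of 83288, 89481 and 81874 (level 17.04 ± 0.16). Svs5 had Cy5 of 40.7, 107 and 123 and Cy3 of 76.3, 77.7 and 75.75 and was mixed, and Svs1 had Cy5 of 28.2, 97.9 and 115 and Cy3 of 56.3, 72.8 and 93.1 and was mixed. Semg1 was thus bright in all 6 readings and the other pair dim in all 6. Svs3b was at 10.19 ± 0.59, Svs3a at 8.04 ± 0.08 and Svs6 at 7.20 ± 0.62, and Svs7 and Spink1l were not detected. In all, 5 of the 9 measured genes of this list were detected. Some Svs genes are related in sequence, and how far a probe takes up RNA of a related gene was not tested.

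Markers of other cell types and tissues covered a wide range of brightness. Their counts of detected genes stand beside a share of 77.4% over all named genes. The 21 skeletal muscle genes had a median percentile of 85.8, with 19 detected and 9 in the brightest 10%. Myh4, a fast myosin heavy chain, had Cy5 of 11669, 27098 and 32007 and Cy3 of 9903, 9028 and 10456, and Acta1, skeletal actin, had Cy5 of 7367, 17990 and 19250 and Cy3 of 7533, 6946 and 7589. Both were bright on all 3 arrays. The slow-fibre genes Myh7 (6.42 ± 0.15) and Tnnt1 (5.65 ± 0.15) were mixed, while Tnni1, another slow-fibre gene, was detected at 7.19. Smooth muscle genes had a median percentile of 82.4 (14 of 15 detected, led by Myl9 at 16.25 ± 0.38), fibroblast and matrix genes 68.3 (26 of 29, led by Mgp at 14.25 ± 0.26) and endothelial genes 54.5 (14 of 16, led by Kdr at 10.71 ± 0.21). Macrophage genes had a median percentile of 65.8 (18 of 21, led by Lyz2 at 12.07 ± 0.18). The T and NK cell list (36.0, 16 of 24), the neutrophil list (21.4, 7 of 14) and the B and plasma cell list (20.5, 4 of 10) lay lower. All 6 urothelial genes were detected, with a median percentile of 36.8.

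The same counts for tissues that were not sampled show what the detection mark can tell. Of 23 liver genes 14 were detected (60.9%, median percentile 35.02), of 22 brain genes 15 (68.2%, median 33.2) and of 19 testis germ cell genes 8 (42.1%, median 23.6). Of all named genes, 77.4% were detected. Other such lists ran from kidney (18.2, 8 of 15 detected) to pituitary and hypothalamus (39.1, 13 of 18). The lymphocyte and neutrophil lists, with medians of 20.5 to 36.0, thus lay about as high as lists of tissues that were not sampled. The urothelial list, at 36.8, lay in the same range, though all 6 of its genes were detected. The list of genes known from the epididymis also lay in this range, with a median percentile of 29.2. Of its 14 genes 9 were detected, 4 were mixed and Lcn9 was not detected. Only its brightest members, Cd52 as described and the defensin Defb1 at 14.22 ± 0.11, stood far above the rest of that list.

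**Figure D2:**
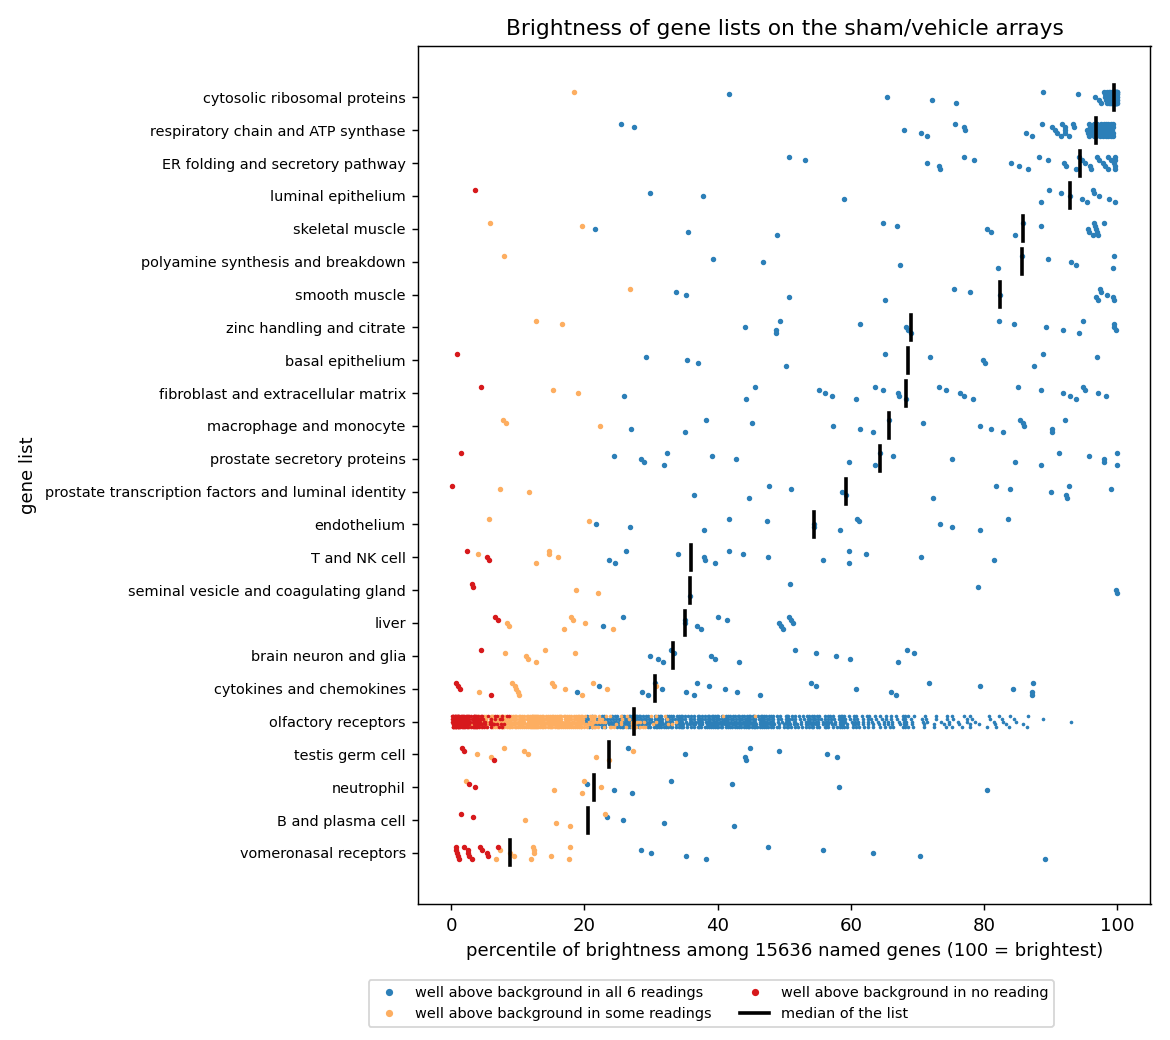
Percentile of brightness (100 is the brightest of 15636 named genes) for the members of 24 gene lists, with 1 point per gene coloured by whether it was well above background in all, some or none of the 6 readings, and a bar at the list's median. Ribosomal and respiratory genes crowd the right end (medians 99.5 and 96.7), and olfactory receptors and vomeronasal receptors lie to the left (27.5 and 8.89) with points of all 3 colours.

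Inflammatory mediators were mostly dim in these control glands. Of 41 cytokine and chemokine genes 24 were detected (58.5%, against 77.4% of all named genes), with a median percentile of 30.5. As a list they thus lay about as high as the liver and brain genes (35.02 and 33.2). The brightest were Tgfb3, a growth factor of the stroma (11.22 ± 0.20), and Cxcl12, a constitutive chemokine (11.18 ± 0.04). Il1b, the inflammatory interleukin, was detected at 7.57 ± 0.18, with Cy5 of 67.3, 263 and 377 and Cy3 of 99.3, 143 and 183. Il6, Il2, Csf3 and Cxcl6 were not detected. Il6 had Cy5 of 17.9, 48.2 and 54.7 and Cy3 of 35.2, 59.5 and 60.4, each above the negative control median of its reading but not well above background. Of 20 immediate early genes, which encode fast-induced transcription factors and their like, 18 were detected, led by Jund (12.64 ± 0.11). Of 30 cell cycle genes 27 were detected, led by Ccnd1, a cyclin of G1 phase.

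Genes that were not detected numbered 874 of 15636, and 2666 were mixed. The brightest of the undetected genes ranked 14204. Among the undetected genes were 151 of 1108 olfactory receptors (13.6%), against 5.59% of all named genes. Among the lists, 15 of 35 vomeronasal receptors were not detected, against 5.59% of all genes, while no member of the respiratory chain, ribosomal or secretory pathway lists was in this class. The lowest rank belonged to Spink7, whose intensities on array 1 were below 0 in both dyes, so that its place rests on that array. Detection also differed between dyes: 904 genes were well above background in Cy5 on all 3 arrays but not in Cy3 on all 3, and 286 the reverse.

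Being detected went with the base composition of the probe. Probes detected in all 6 readings had a median of 45% G and C, mixed probes 41.7%, and probes above background in no reading 35%. With probes cut into 4 equal groups from low to high G and C, 44.7%, 57.6%, 71.9% and 87.8% were detected and 28.5%, 10.9%, 3.38% and 0.429% were above background in no reading. The 1108 olfactory receptor genes, a family named for sensing odours in the nose, were looked at in the same way. Of these, 606 (54.7%) were detected, against 77.4% of all named genes. A pair of probes is shown for this contrast: the brightest of the 14 detected receptors at the highest G and C content in that class (55.0%), and the brightest of the 70 undetected receptors at the lowest (35% of 60 bases), with G and C in capitals in the first 30 bases.
Or10am5, chr1:65821829-65821888, plus strand: CGaGGCCaatGtGttCGtGGCCaCCGtCCt
Or1s2, chr1:217039464-217039523, plus strand: CaGatGCaatGatCaaCaatattGtaaaat
Or10am5, with 33 G or C of 60 bases, had Cy5 of 813, 6179 and 6557 and Cy3 of 1495, 1964 and 2061. Or1s2, with 21, had Cy5 of 32.4, 49.2 and 50.6 and Cy3 of 40.2, 63.8 and 59.3. The pair was chosen by detection, so that the difference between its readings follows from the choice. Across the family, the detected share was 24.3% of 218 genes with probes of up to 35% G and C, 47.0% of 415 genes over 35 to 40%, 73.0% of 415 over 40 to 45%, and 91.7% of 60 over 45%. For all named genes the shares in the same bins were 65.0%, 66.5%, 76.1% and 90.9%. The family thus had a lower share than all genes in the bins up to 40%, and shares near those of all genes above; no test was made. Receptors in this family are related in sequence, and which RNA their probes took up was not tested.

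**Figure D3:**
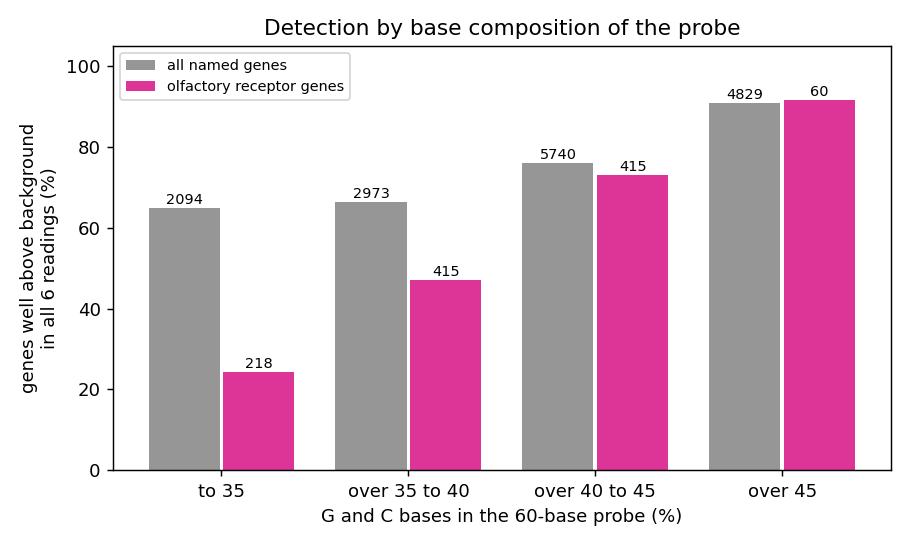
Share of genes well above background in all 6 readings (%), by G and C content of the 60-base probe, for all named genes (grey) and olfactory receptor genes (pink), with the number of genes above each bar. Both shares are higher at higher G and C, and the olfactory share goes from 24.3% to 91.7%.

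Both dyes of an array ranked transcripts nearly alike on arrays 2 and 3, and less closely on array 1. The rank correlation (Spearman) over the probes detected in all 6 readings was 0.956, 0.994 and 0.995 on arrays 1 to 3. Over the probes detected in all 6 readings, log2 Cy5 and log2 Cy3 correlated at r = 0.978 on array 1, 0.994 on array 2 and 0.995 on array 3 (26840 to 26860 probes, which share array and RNA label). The median absolute log2 ratio after scaling was 0.25, 0.23 and 0.21, and 1.08%, 1.63% and 1.17% of probes differed at least 2-fold between dyes.

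No probe passed the test for a dye difference over the 3 arrays. After loess normalization within each array, 0 of 29000 probes (0%) had a mean log ratio different from 0 in limma with Benjamini-Hochberg adjustment at 0.05, and 2542 had an unadjusted p under 0.05. The smallest adjusted p was 0.556 and the largest mean log2 ratio was 0.68 in size. Without array 1, however, 6038 probes passed, 3041 with Cy5 and 2997 with Cy3 higher, and with median centring in place of loess 5328 passed, 5301 of them with Cy5 higher. The probes with the smallest p were named after their values were seen. They included Gpat4, an acyltransferase of glycerolipid synthesis, with log2 ratios of -0.58, -0.55 and -0.47 on arrays 1 to 3. Msmb had 0.48, 0.42 and 0.50, and a probe of Vamp2, a vesicle fusion protein, had -0.39, -0.62 and -0.56. Each of these kept its sign on all 3 arrays, as did 37.1% of 28977 probes, and none passed the adjusted threshold.

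Array 1 differed from the others in how its dye ratio was laid out. Its log ratios were nearly unrelated to those of arrays 2 and 3 (r = 0.05 and 0.05 over about 29000 probes), whereas arrays 2 and 3 correlated at 0.64. On array 1 the ratio correlated with the row of the spot at r = -0.72, and with rows cut into 10 equal bands its median went from 0.43 in the first to -0.16 in the last. On arrays 2 and 3 the correlation with row was 0.25 and 0.17. With the number of G bases in the probe it was -0.18 and -0.20 on arrays 2 and 3 and 0.01 on array 1. These values are descriptions across probes, which are not replicates.

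**Figure D4:**
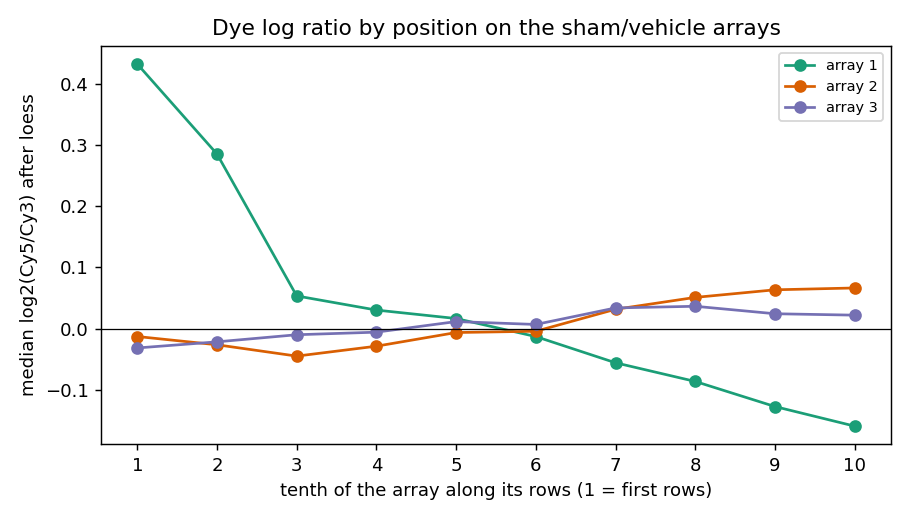
Median log2(Cy5/Cy3) after loess in each of 10 equal bands of the array along its rows, with 1 line per sham/vehicle array. Array 1 runs from 0.43 to -0.16, while the bands of arrays 2 and 3 stay between -0.04 and 0.07.

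The spread of levels between arrays was small for most probes and largely tied to array 1. The median SD of the log2 level over the 3 arrays was 0.17 for both dyes together, 0.25 for Cy5 and 0.15 for Cy3, over 26860 probes. In 4 equal groups from the dimmest to the brightest probes it was 0.19, 0.19, 0.16 and 0.14. Without array 1 the median SD was 0.07. Within a single array, the probes printed on 10 spots had a median SD of 0.36 in Cy5 of array 1, 0.20 in Cy5 of array 2 and 0.13 in Cy5 of array 3, and 0.18, 0.17 and 0.11 in Cy3. These are 199 probes, and with the scanner's processed signal the value for Cy5 of array 1 was 0.22.

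Most detected genes of largest spread stood apart on array 1. Abcb1a, a drug efflux pump, had Cy5 of 97.3, 4431 and 5075 and Cy3 of 168, 1306 and 1550, and an SD of 1.76. Array 1 was far below the other 2 in each dye. The olfactory receptor Or5m3 (SD 1.43), the transcription factor Ebf3 (1.39) and Car4, a membrane carbonic anhydrase (1.35), were likewise lowest on array 1, and the receptor Or51a42 (1.36) was highest there. Of the 15 genes with the largest SD, 13 were lowest and 2 highest on array 1, but the spread of Cyp11b3, a steroid hydroxylase, came from array 3 (levels of 8.20, 8.61 and 10.38). In Cy3, for 11 of the 15 all 4 arrays of the same slide lay below all 8 arrays of the other slides, and for 1 they lay above; for Cyp11b3, among the 11, the gap was only from 7.89 to 7.905. Abcb1a had Cy3 levels of 7.11 to 7.996 on that slide and 9.69 to 10.98 on the others. The whole slide was scanned on another day, and slide and scan cannot be told apart.

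The Cy3 readings of the other arrays, labelled as the same sham/vehicle RNA, gave a further check of the baseline. Of 32666 probes, 25 (0.0765%) differed between the sham/vehicle arrays and the mean of the other 3 groups in limma, all 25 lower on the sham/vehicle arrays. With the replicate number, which is the slide, as a block, 66 differed, 3 higher and 63 lower. Without 1 array at a time the count ran from 10 (without sham/vehicle replicate 2) to 30 (without sham/Eviprostat replicate 1 or obstruction/Eviprostat replicate 1), and it was 12 and 13 without sham/vehicle replicates 1 and 3, 15 without sham/Eviprostat replicate 2 and 16 without obstruction/Eviprostat replicate 2. With normexp background correction it was 0, with 35 at an unadjusted p under 0.05. Against single groups the counts were 93 (0.285%; 289 with the block) for obstruction/vehicle, 10 (0.0306%; 19 with the block) for sham/Eviprostat and 1 (0.00306%; 1 with the block) for obstruction/Eviprostat.

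Seminal vesicle genes and inflammatory genes were among the 25. They included Svs1, Svs3a, Svs3b, Svs5, Svs6 and Svs7, the inflammatory mediators Il1b, Ccl3 and Cxcl3, the neutrophil-related S100a8, Lcn2 and Slpi, and also Npy, Trpv6, Wfdc21, Krt7, Dnase2b, Gpnmb, Rnd1, Tnfrsf1b, Klk1c2 and Klk1c9. Svs1 had Cy3 levels of 6.04, 6.19 and 6.42 on the sham/vehicle arrays, 10.81, 10.31 and 10.36 on the sham/Eviprostat arrays, 12.98, 12.27 and 12.15 on the obstruction/vehicle arrays and 5.88, 6.45 and 6.63 on the obstruction/Eviprostat arrays. The sham/vehicle and obstruction/Eviprostat arrays overlapped, and the other 2 groups lay above both (difference from the mean of the other groups -3.54 ± 0.20, SE, adjusted p = 3e-05). The differences of Svs6, Svs5 and Svs3b were -2.85, -2.07 and -1.90, and each was higher on every sham/Eviprostat and obstruction/vehicle array than on any sham/vehicle array. Ccl3, a chemokine of macrophages, had 5.95, 6.02 and 6.05 on the sham/vehicle arrays and 11.32, 10.95 and 11.17 on the obstruction/vehicle arrays, and Il1b had 6.86, 7.17 and 7.39 against 11.90, 11.22 and 11.36. Both stood near their sham/vehicle level on the remaining 6 arrays.

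On the obstruction/vehicle arrays the same probes were brighter in Cy5 too. For all 25 probes the mean Cy5 level, scaled over the 12 Cy5 readings, was higher on the obstruction/vehicle arrays than on the sham/vehicle arrays, by 3.14 to 12.09 (log2, median 6.96), where the Cy3 difference had a median of 2.69. On the sham/Eviprostat arrays Cy5 was higher for 21 of 25 and Cy3 for 24 of 25, with median differences of 3.62 and 0.72. Among the exceptions, Lcn2 had a mean Cy5 level of 7.59 there against 7.97 on the sham/vehicle arrays, and mean Cy3 levels of 7.25 against 7.18. On the obstruction/Eviprostat arrays Cy5 was higher for 20 and Cy3 for 18 of 25, with medians of 0.41 and 0.08. The 25 probes were chosen by their lower Cy3 on the sham/vehicle arrays, so that their Cy3 counts and medians follow in part from the choice. No share over all tested probes stands beside the Cy5 counts, which therefore only describe these 25 probes. The part of the Cy5 signal in the Cy3 result was not tested.

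Svs4 went the other way. Its Cy3 level was 17.60, 16.93 and 16.83 on the sham/vehicle arrays and 17.52, 16.91 and 16.72 on the obstruction/Eviprostat arrays, but 15.95, 14.35 and 14.20 on the sham/Eviprostat arrays and 13.88, 12.46 and 12.33 on the obstruction/vehicle arrays, so that the former 2 groups overlapped and lay above the others. The difference of 2.19 ± 0.40 did not pass without the block (adjusted p = 0.135) and passed with it (adjusted p = 7e-05). Its mean Cy5 level on the same arrays lay between 18.90 and 19.26, but its Cy5 spot was saturated on 5 of the 12 arrays (1 sham/vehicle, 2 sham/Eviprostat and 2 obstruction/vehicle), so that the Cy5 means of these 3 groups are lower limits and the groups have no order in Cy5. Against the mean of the other groups, Pbsn and Msmb did not pass in either fit (adjusted p = 0.343 and 0.152 with the block), with differences of -0.10 and -0.27 without it (-0.19 for Pbsn with it, since 1 spot of Pbsn was missing). Against the obstruction/vehicle arrays alone, however, both were lower on the sham/vehicle arrays with the block (Msmb -0.67, adjusted p = 0.00096; Pbsn -0.62, adjusted p = 0.0135) and did not pass without it (adjusted p = 0.9996 for each). The ranks and levels of the sham/vehicle arrays given above use no reading of the other arrays.

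**Figure D5:**
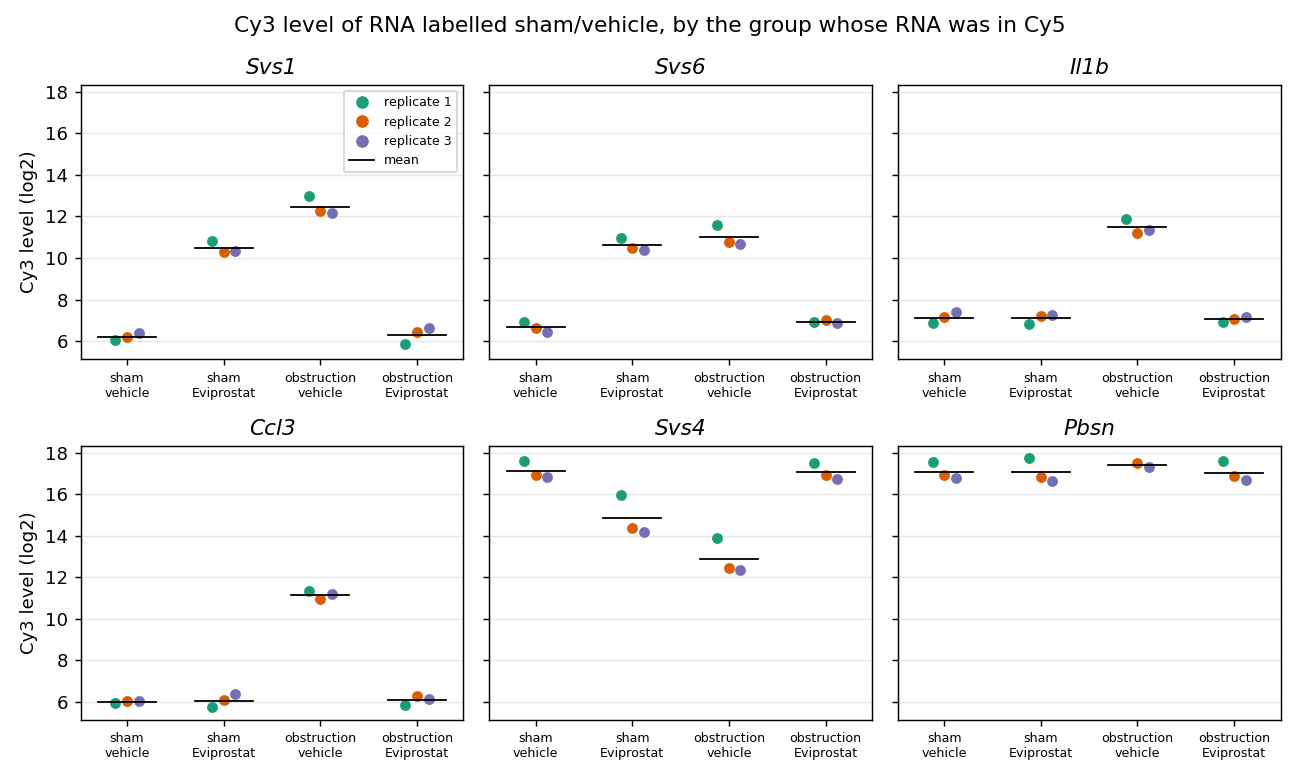
Cy3 level (log2, scaled over the 12 Cy3 readings) of 6 genes on each array, by the group whose RNA was in Cy5; points are arrays coloured by replicate number and bars are group means. Svs1 and Svs6 are high on the sham/Eviprostat and obstruction/vehicle arrays, Il1b and Ccl3 on the obstruction/vehicle arrays alone, and Svs4 is low where Svs1 is high; Pbsn lacks obstruction/vehicle replicate 1, a spot marked as an outlier.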

How the data were processed

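Rat prostate RNA was hybridised to 2-colour Agilent arrays of 45018 spots, and the authors deposited the scanner output of each array. Per the file headers these hold spot and local background intensities of both dyes, scanner-processed intensity and a log10 ratio of Cy5 over Cy3, written by Agilent Feature Extraction (9.5.1.1, also per the submitters' processing notes). Per the labels, 1500 ng of group 1 RNA and 300 ng of each other group were labelled. Probe positions (rn3) come from the array design, per the file headers.

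From these, mean spot signal minus median local background was computed for 43379 gene spots, leaving out spots marked as outliers, averaged per probe (41012 probes), scaled to a common 75th percentile, floored at 1 and put on a log2 scale. The brightest probe stood for a gene. Names were updated through RefSeq gene tables of GRCr8: 10674 probes by accession, 5582 by symbol and 3823 by synonym; the array's own symbol served for 136, and 20797 stayed unnamed. A gene was detected if a probe was well above background in all 6 readings. Log ratios (normexp, offset 50, then loess; probes above background in both dyes on at least 2 arrays) and Cy3 levels (probes above background on at least 3 of 12 arrays) were tested with limma 3.58.1 (lmFit, eBayes) in R 4.3.3, with Benjamini-Hochberg adjustment over all probes tested at 0.05. The ranking and both fits were tested on simulated data. Python 3.11.15, pandas 2.3.3, numpy 2.4.6, scipy 1.17.1 and matplotlib 3.10.9 served for the rest.

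Genes named were the 25 brightest, the highest and lowest members of 55 gene lists and those that decide a count, the 5 most variable detected genes, the called genes of largest difference and further list members. The arrays and lists were chosen with earlier results of these data known. Replicate numbers paired the arrays: in Cy3, deviations from the group mean correlated at 0.35 to 0.84 (median 0.65) for 18 pairs of the same number, and at -0.79 to 0.60 (median -0.56) for 36 pairs of different numbers, and per the file headers a number is a slide. Alternatives were other background corrections, scalings, flags, filters, dyes and left-out arrays. A few genes that this rule names are not reported here.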

Additional observations from a re-analysis of the deposited data

Results flagged for a closer look

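Spike-in controls, artificial transcripts added at known ratios to both dyes, gave a signal outside the gene measurements. Per the file headers their mean absolute log10 ratio was 0.435 on array 1, 0.446 on array 2 and 0.444 on array 3, against 0.0533, 0.0442 and 0.0428 for the gene spots, and the slope of observed on intended log ratio was 0.863, 0.863 and 0.867.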

How the results depend on the processing

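The number of detected genes stayed within 1.5 times the main count under every alternative run, and 23 to 25 of the 25 brightest genes were shared. The number of genes not detected (874) was 99 with the scanner's flag for positive and significant signal, 276 with the 99th percentile of negative controls and 1317 in Cy3 alone. The median absolute log2 ratio between dyes (0.23) was 0.20 with normexp, 0.13 with the processed signal and 0.37 over all probes. The median SD between arrays (0.17) was 0.30 with normexp, and with 1 replicate left out it ran from 0.0743 (without replicate 1) to 0.1799 (without replicate 3). The dye test (0 called) called 5328 probes with median centring and 6038 without replicate 1, where it rests on 2 arrays, and 0 without replicate 2 or 3. The Cy3 comparison (25 called) gave 66 with the replicate block, 43 with quantile normalization, 0 with normexp and 10 to 30 with 1 array left out. The comparisons with single groups and the fits with the replicate block for them were chosen after seeing the data, as were the correlations of the log ratio with row, base composition and other arrays, and the counts for single groups rose with the block from 10 to 19 (sham/Eviprostat) and from 93 to 289 (obstruction/vehicle). The cause was not tested. Dim probes limit the ranking, since those near the negative controls have only a bound.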
